A study of Mus musculus with 4 samples.

Results

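The myeloid C-type lectin receptors are surface proteins that carry a C-type lectin-like domain and are made mainly by macrophages, monocytes, neutrophils and dendritic cells. Members that bind microbial sugars or lipids, such as Dectin-1, Dectin-2 and Mincle, signal through an immunoreceptor tyrosine-based activation motif (ITAM), in their own tail or in an adaptor, to the kinase SYK and the adaptor CARD9, and start phagocytosis and cytokine synthesis. Other members carry an inhibitory motif (ITIM) that recruits the phosphatases SHP-1 and SHP-2. The set examined here consists of 10 genes, *Clec4n*, *Clec4e*, *Clec4d*, *Clec5a*, *Clec7a*, *Clec9a*, *Clec4a2*, *Clec12a*, *Clec4a1* and *Clec4a3*, chosen by name and not by their values. Each was represented by 1 probe set with a single gene symbol, so that all 10 of the 10 were measured among 19946 genes.

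Alveolar macrophages (AM), washed from the airspaces of untreated *Trem-2*-/- and wild type (WT) mice of 8 to 10 weeks by bronchoalveolar lavage, were profiled on 2 Affymetrix mouse gene arrays per genotype. *Trem-2*-/- mice lack TREM-2, a lipid-binding receptor of macrophages that signals through the ITAM adaptor DAP12, and the mutation had been crossed for 10 generations to the C57/Blk6 strain. WT mice were C57/Blk6 animals obtained from a commercial breeder and are not described as littermates. Both genotypes were bred in the same animal facility and were matched for age and sex. RNA of each array came from pooled mice. The sources used here give neither the number of mice in a pool nor whether both pools of a genotype held separate animals. The p-values therefore reflect array-to-array spread, part of which may be technical.

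Values are log2 expression levels after the robust multi-array average (RMA), and a difference of 1 on this scale is a doubling of the signal. Pearson's r across probe sets, which are not independent replicates, was 0.995 between the *Trem-2*-/- arrays, 0.994 between the WT arrays and 0.992 to 0.993 between genotypes. *Trem2* itself was measured at 7.64 and 7.45 on the *Trem-2*-/- arrays, against 9.58 and 9.74 on the WT arrays (log2 fold change −2.11, limma, adjusted p = 0.0009). Of 18 measured AM markers, none lay below the lower quartile of the arrays in both genotypes, 1 (*Car4*, a carbonic anhydrase, by 0.90) was called higher in *Trem-2*-/- AM and 17 did not pass the test. *Car4* passed in only 1 of 4 fits with an array omitted (adjusted p = 0.032 to 0.22). Of the 18, 3 were higher and 2 lower at an unadjusted p below 0.05 in limma, against 4.64% and 6.9% of all genes. The arrays did not overlap for 4 that were higher and 9 that were lower, against 17.4% and 25.4% of all genes. *Siglecf*, which defines mouse AM among lung macrophages, had 11.18 and 11.08 on the *Trem-2*-/- arrays and 11.37 and 11.32 on the WT arrays. Its log2 fold change was −0.21 (adjusted p = 0.38).

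None of the 10 lectin receptors was called different between the genotypes at an adjusted p of 0.05 in limma. Over all genes, 0.431% were called higher and 0.135% lower. The differences were small, and 9 of the 10 receptors nonetheless had both *Trem-2*-/- arrays above both WT arrays, while *Clec9a* had both below. Separation of either kind was seen in 42.8% of all genes. Across all genes 17.4% had both *Trem-2*-/- arrays above both WT arrays and 25.4% had both below. Among the 10783 genes with a mean log2 value of at least 6, a range that holds all 10 receptors, 21.9% had both above and 47.0% had an estimate above 0. The median log2 fold change of the receptors was 0.16, against −0.02 over all genes, and the estimates ran between −0.34 for *Clec9a* and 0.75 for *Clec4a1*. At an unadjusted p below 0.05, 5 receptors were higher and none lower, against 4.64% of all genes higher and 6.9% lower. Fewer cells of a type and less RNA per cell cannot be told apart in such pooled material.

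**Figure D1:**
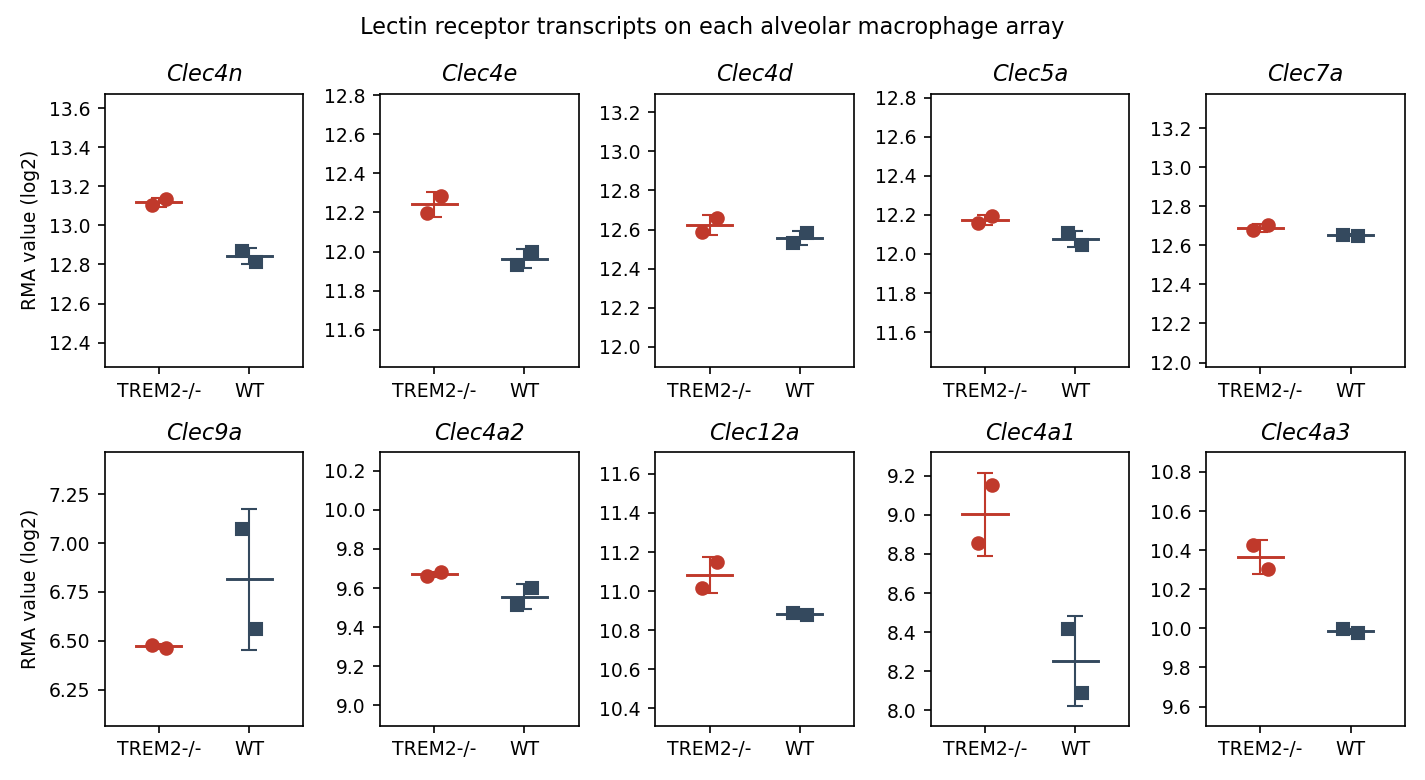
RMA value (log2) of each lectin receptor transcript on the 2 Trem-2-/- arrays (circles) and the 2 WT arrays (squares), with the mean (wide line) and SD (capped line); every panel spans the same 1.4 log2 units. The circles lie above the squares for 9 genes and below them for *Clec9a*, and the gap is widest for *Clec4a1*, at 0.44.

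Among the receptors that signal through the ITAM adaptor FcRγ, *Clec4n* and *Clec4e* had slightly more signal in *Trem-2*-/- AM and *Clec4d* had nearly equal signal in both genotypes. *Clec4n* encodes Dectin-2, a receptor for fungal α-mannans. Its log2 values were 13.10 and 13.13 on the *Trem-2*-/- arrays and 12.87 and 12.82 on the WT arrays. The genotypes did not overlap, and the gap of 0.23 between the nearest arrays exceeded the SD within either genotype (0.02 in *Trem-2*-/- AM and 0.04 in WT AM, n = 2 each). This amounts to 0.28 log2 units, or 1.21-fold (standard error 0.07, adjusted p = 0.25).

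*Clec4e* encodes Mincle, which recognizes the mycobacterial glycolipid trehalose dimycolate and a ribonucleoprotein released by dead cells. It had 12.20 and 12.29 on the *Trem-2*-/- arrays versus 11.931 and 11.997 in WT AM, again without overlap. The difference was 0.28 log2 units (standard error 0.08, adjusted p = 0.27). *Clec4d* encodes MCL, or Dectin-3, which pairs with Mincle and raises its surface level. Its values were 12.59 and 12.66 on the *Trem-2*-/- arrays versus 12.53 and 12.58 in WT AM, so the nearest arrays of the genotypes differed by only 0.0035. *Clec4d* thus differed by 0.06 log2 units (95% interval −0.12 to 0.25, adjusted p = 0.79). *Fcer1g*, which encodes the FcRγ chain itself, had 12.995 and 13.037 in *Trem-2*-/- AM and 13.003 and 12.946 in WT AM, with overlapping arrays (log2 fold change 0.04, adjusted p = 0.87).

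*Clec5a* encodes MDL-1, a receptor for dengue virus that, as TREM-2 does, signals through DAP12. It had 12.16 and 12.19 on the *Trem-2*-/- arrays versus 12.11 and 12.05 in WT AM. Both *Trem-2*-/- arrays were the higher, by a gap of 0.05 that is close to the SD in WT AM (0.04, n = 2). A log2 fold change of 0.10 resulted (95% interval −0.08 to 0.28, adjusted p = 0.66), which bounds the change between a decrease of 5.3% and an increase of 21.0%. *Tyrobp*, the gene of DAP12, differed by −0.02 (adjusted p = 0.96), and *Hcst*, the gene of the related adaptor DAP10, had 5.92 and 6.04 on the *Trem-2*-/- arrays versus 6.04 and 6.06 in WT AM (log2 fold change −0.07, adjusted p = 0.79).

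*Clec7a* and *Clec9a* carry a single tyrosine motif of the ITAM type in their own tail, called a hemITAM. *Clec7a* encodes Dectin-1, the receptor for fungal β-glucans. It was the least different member, with 12.68 and 12.71 on the *Trem-2*-/- arrays versus 12.65 and 12.65 in WT AM. The log2 fold change was 0.04 (95% interval −0.13 to 0.21, adjusted p = 0.88), and the interval reaches from a decrease of 8.8% to an increase of 15.8%.

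*Clec9a* encodes DNGR-1, which binds actin filaments exposed by dead cells and is known as a marker of cross-presenting dendritic cells. It was the only member whose *Trem-2*-/- arrays were the lower, at 6.48 and 6.46 against 7.07 and 6.56 on the WT arrays. The *Trem-2*-/- arrays agree closely, whereas WT replicate 1 lay 0.51 above WT replicate 2. The log2 fold change was −0.34 (95% interval −0.74 to 0.05, adjusted p = 0.49), and it was −0.09 without WT replicate 1 (adjusted p = 0.77) and −0.60 without WT replicate 2 (adjusted p = 0.15). None of 19 other dendritic cell markers passed in limma or SAM. At an unadjusted p below 0.05, 3 were higher and 2 lower, against 4.64% and 6.9% of all genes. The lowest p belonged to *Fscn1* and *Dpp4*, both higher, with log2 fold changes of 0.47 (adjusted p = 0.15) and 0.35 (adjusted p = 0.29). The mean log2 level of the 19 was 6.71 and 6.65 in *Trem-2*-/- AM and 6.66 and 6.70 in WT AM. *Xcr1*, a chemokine receptor of the same dendritic cells, had means below the lower quartile of the arrays in both genotypes, with 4.58 and 4.05 in *Trem-2*-/- AM and 4.30 and 4.44 in WT AM. *Batf3*, a transcription factor those cells need, had 6.34 and 6.29 in *Trem-2*-/- AM and 6.53 and 6.60 in WT AM (log2 fold change −0.25, adjusted p = 0.30). The part of dendritic cells in the level of *Clec9a* was not tested.

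The receptors with an inhibitory ITIM were *Clec4a2* and *Clec12a*. *Clec4a2* encodes DCIR1, the mouse counterpart of human DCIR, and had 9.66 and 9.68 on the *Trem-2*-/- arrays versus 9.51 and 9.60 in WT AM. Its log2 fold change was 0.11 (95% interval −0.07 to 0.30, adjusted p = 0.62). *Clec12a* encodes MICL, which binds uric acid crystals and restrains the response to dead cells. It had 11.02 and 11.15 on the *Trem-2*-/- arrays versus 10.89 and 10.88 in WT AM, without overlap, and differed by 0.20 log2 units (standard error 0.08, adjusted p = 0.42). *Ptpn6* and *Ptpn11*, which encode SHP-1 and SHP-2, did not pass the test.

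*Clec4a1* and *Clec4a3* had the largest differences of the set. They encode DCIR4 and DCIR3, relatives of DCIR1 that lack the ITIM. *Clec4a1* had log2 values of 8.85 and 9.15 on the *Trem-2*-/- arrays versus 8.42 and 8.09 in WT AM. Its replicates were also among the most spread of the set, with means of 9.003 ± 0.21 in *Trem-2*-/- AM and 8.25 ± 0.23 in WT AM (SD, n = 2 each). The estimate was 0.75 log2 units, or 1.68-fold (standard error 0.14, 95% interval 0.40 to 1.10, adjusted p = 0.13).

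*Clec4a3* had 10.43 and 10.30 on the *Trem-2*-/- arrays versus 10.00 and 9.98 in WT AM, and both WT arrays lay within 0.02 of each other. The estimate was 0.38 log2 units (standard error 0.08, 95% interval 0.19 to 0.57, adjusted p = 0.16). With 1 array left out, the log2 fold change ran between 0.59 and 0.91 for *Clec4a1* and between 0.32 and 0.44 for *Clec4a3*, and neither passed in any of these fits. All 95% intervals are per gene, without correction for multiple genes. An exact permutation test on 2 arrays per genotype has 0.333 as its smallest two-sided p.

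**Figure D2:**
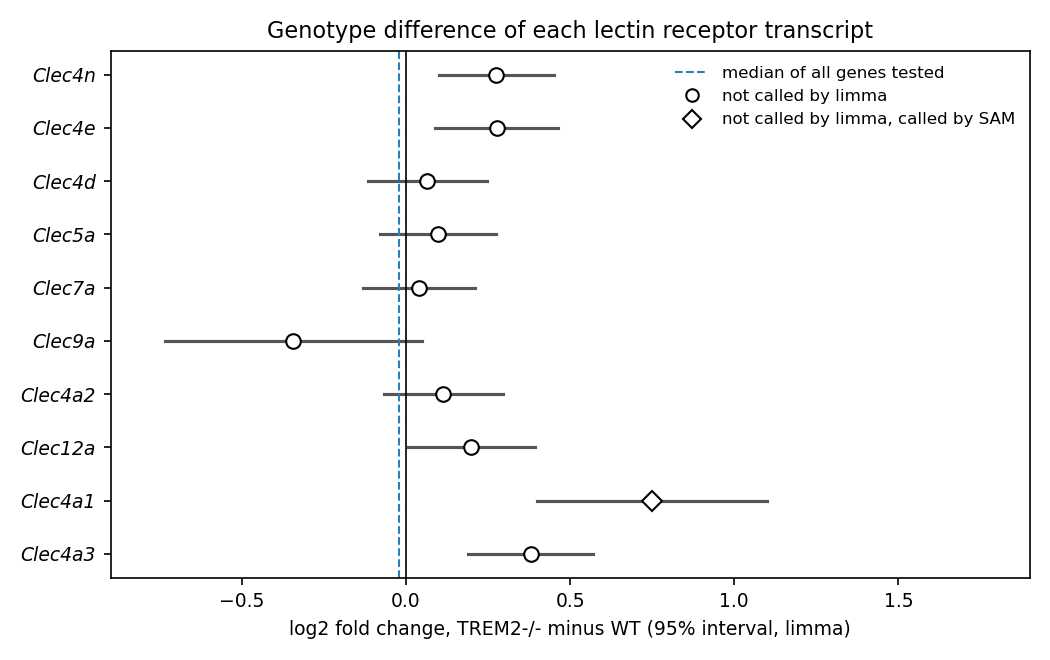
Log2 fold change of each lectin receptor transcript, Trem-2-/- minus WT, with its 95% interval from limma (2 arrays per genotype). The solid line marks 0 and the dashed line the median of all genes tested, −0.02; the estimates lie between −0.34 for *Clec9a* and 0.75 for *Clec4a1*, the only member that SAM called.

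Whether a receptor was called depended on the test and on which genes entered it. Significance analysis of microarrays (SAM), which the study's methods name, called *Clec4a1* as higher at a false-discovery rate of 5%, alongside 0.857% of all genes, and no receptor as lower. With an intensity trend and robust variance in limma, 5 receptors were called higher, against 1.9% of all genes. These were *Clec4n* (adjusted p = 0.00021), *Clec4a1* (adjusted p = 0.00066), *Clec4a3* (adjusted p = 0.0011), *Clec4e* (adjusted p = 0.0015) and *Clec12a* (adjusted p = 0.049). With the test confined to genes with a mean log2 value of at least 6, *Clec4a1* (adjusted p = 0.029) and *Clec4a3* (adjusted p = 0.032) were called, against 1.92% of those genes. The methods' t-test without adjustment called *Clec4n*, *Clec4e* and *Clec4a3*, against 3.92% of all genes. After adjustment it called none of the 19946 genes, *Trem2* included, so it cannot set the receptors apart from other genes. *Clec4d*, *Clec5a*, *Clec7a*, *Clec4a2* and *Clec9a* were called under none of the 14 alternatives.

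**Figure D3:**
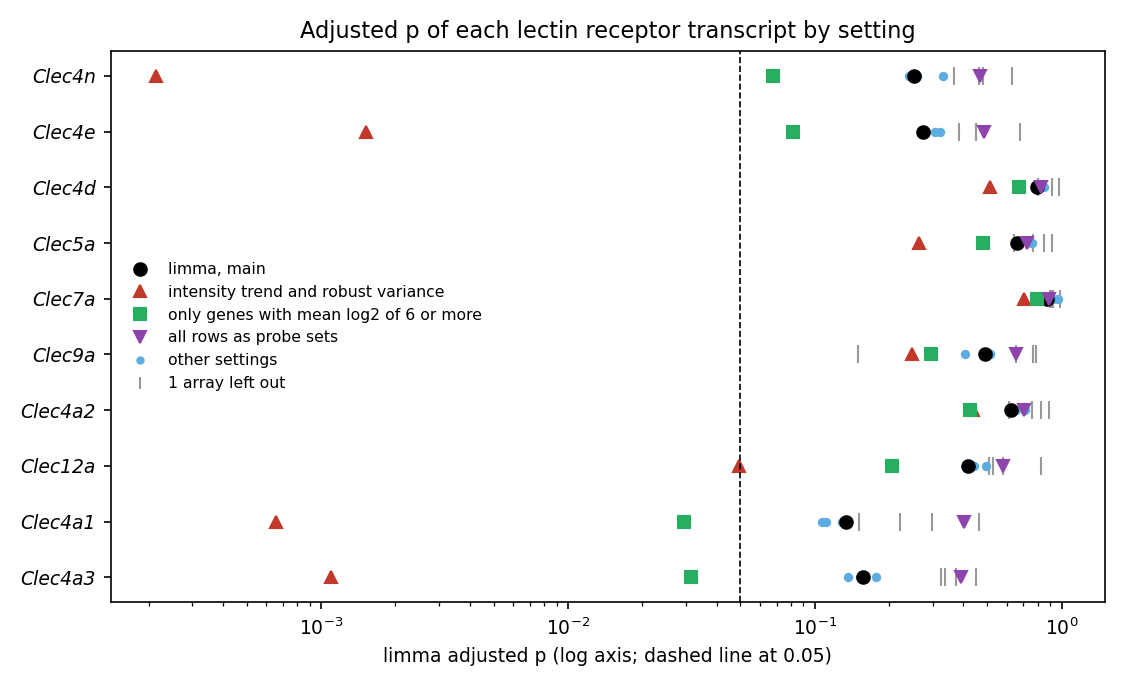
Adjusted p of each lectin receptor transcript in limma (log axis, dashed line at 0.05) under each setting that gives one; the methods' t-test and SAM are not drawn. Black circles, at 0.13 to 0.88, all lie right of the line, and 5 of the red triangles, which use an intensity trend and robust variance, lie left of it.

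**Figure D4:**
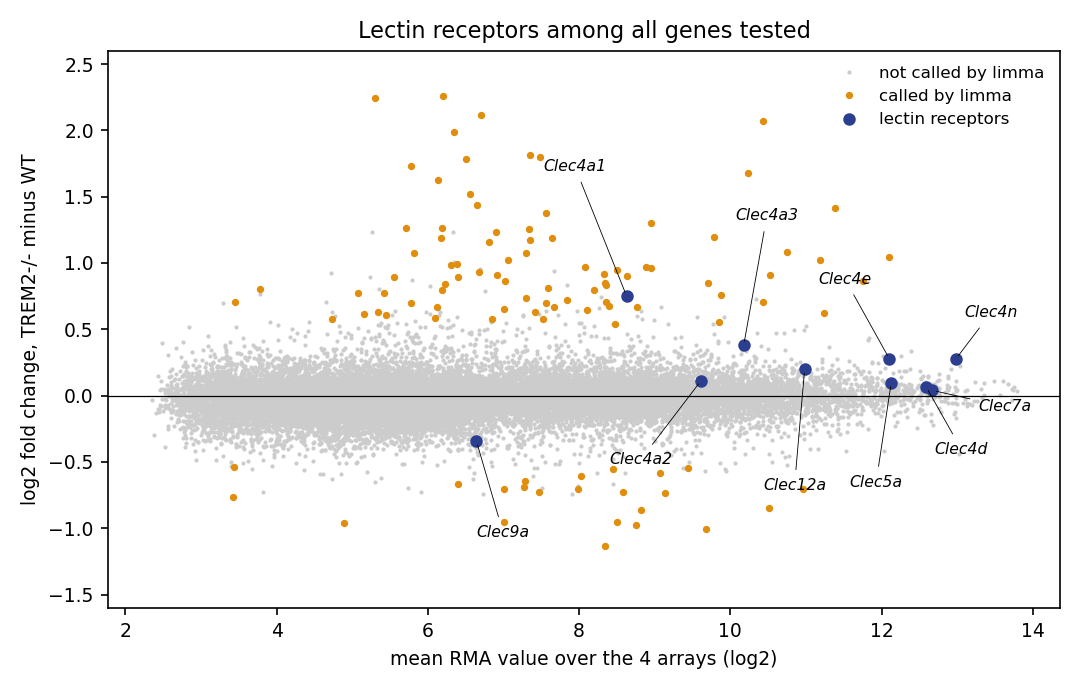
Log2 fold change, Trem-2-/- minus WT, against the mean RMA value over the 4 arrays (log2) for 19946 genes, with the lectin receptors in blue and called genes in orange; 9 genes lie outside the drawn range of −1.6 to 2.6. The receptors sit at mean values of 6.64 to 12.98, and *Clec4a1* stands highest among them without an orange mark.

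All 10 receptors lie on chromosome 6, and *Trem2* lies on chromosome 17. In gene order, *Clec4a1*, *Clec4a3*, *Clec4a2*, *Clec4n*, *Clec4d* and *Clec4e* form 1 run of 9 tested genes together with *Clec4a4*, *Clec4b1* and *Clec4b2*, which encode DCIR2 and a pair of related receptors. The estimate was above 0 for all 9 genes of the run, as it was for 42.7% of all genes, and their median log2 fold change was 0.28. None of the 9 passed the test. *Clec4b1* had 6.57 and 6.73 on the *Trem-2*-/- arrays versus 6.48 and 6.08 in WT AM (log2 fold change 0.38, adjusted p = 0.40). *Clec4a4*, at 4.10 and 4.56 on the *Trem-2*-/- arrays versus 4.24 and 4.24 in WT AM, was the only gene of the run whose arrays overlapped between genotypes. Both *Clec4a4* and *Clec4b2* had means below the lower quartile of the arrays in both genotypes. The genes of this run are related in sequence. Probe sequences were not used here, so whether a probe set also takes up signal from a neighbour was not tested.

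The run stands next to *C3ar1*, the gene of the complement C3a receptor, which passed the test with a log2 fold change of 0.97 (adjusted p = 0.020) and is separated from *Clec4a1* by *Necap1*, at −0.09 (adjusted p = 0.68). On the far side the flanking genes are vomeronasal receptors, *Vmn2r19* at −0.04 (adjusted p = 0.91) the nearest. A second run holds *Clec12a*, *Clec9a* and *Clec7a* among 6 tested genes, and here 3 estimates were above 0 and 3 below, with a median of −0.04. Inside it, *Clec1b*, which encodes the podoplanin receptor CLEC-2, had 9.48 and 9.65 on the *Trem-2*-/- arrays versus 9.74 and 9.74 in WT AM (log2 fold change −0.18, adjusted p = 0.50). *Clec5a* stands apart from both runs.

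**Figure D5:**
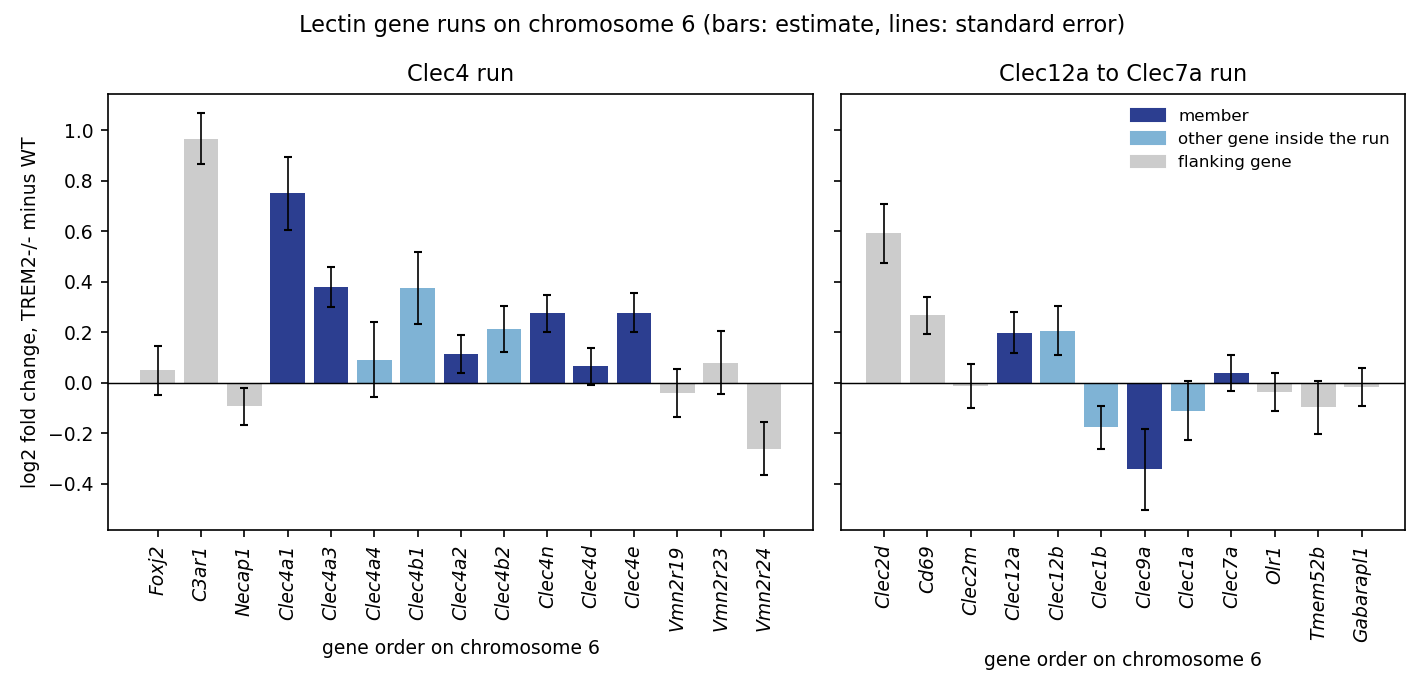
Log2 fold change, Trem-2-/- minus WT, of the tested genes in each lectin run of chromosome 6 in gene order, with 3 flanking genes on each side (bars are limma estimates, lines standard errors, n = 2 arrays per genotype). All 9 bars of the Clec4 run point upward, from 0.06 for *Clec4d* to 0.75 for *Clec4a1*, whereas the Clec12a to Clec7a run holds 3 upward and 3 downward bars.

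The sequence before the transcription start was available from RefSeq for 9 of the 10 receptors (build GRCm38.p6, 250 bases before each start), with *Clec4n* the exception. The windows of *Clec4a1* and *Clec4a3* are shown because these genes differed most and belong to the same run, that of *Clec4e* as a further gene of the run, and that of *Clec9a* as the only receptor with lower *Trem-2*-/- arrays. Capitals mark GAGGAA or its reverse complement TTCCTC, a purine-rich element of the kind that the myeloid factor PU.1 binds.
*Clec4a1*, chr6:122921598-122921847 (+ strand): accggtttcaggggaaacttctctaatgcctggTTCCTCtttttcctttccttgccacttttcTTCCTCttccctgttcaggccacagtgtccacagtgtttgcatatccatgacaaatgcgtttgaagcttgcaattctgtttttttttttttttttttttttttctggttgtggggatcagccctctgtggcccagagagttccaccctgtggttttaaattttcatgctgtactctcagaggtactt
*Clec4a3*, chr6:122952394-122952643 (+ strand): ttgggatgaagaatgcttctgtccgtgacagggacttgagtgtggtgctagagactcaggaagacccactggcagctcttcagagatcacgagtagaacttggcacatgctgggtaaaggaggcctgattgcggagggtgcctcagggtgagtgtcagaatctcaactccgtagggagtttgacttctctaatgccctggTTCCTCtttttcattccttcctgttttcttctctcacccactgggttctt
*Clec4e*, chr6:123289872-123290121 (- strand): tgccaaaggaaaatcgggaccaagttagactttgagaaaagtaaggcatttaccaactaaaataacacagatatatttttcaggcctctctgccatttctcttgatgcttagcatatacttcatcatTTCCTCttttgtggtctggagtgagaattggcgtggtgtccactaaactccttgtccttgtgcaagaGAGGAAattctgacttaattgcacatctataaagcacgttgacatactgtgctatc
*Clec9a*, chr6:129408612-129408861 (+ strand): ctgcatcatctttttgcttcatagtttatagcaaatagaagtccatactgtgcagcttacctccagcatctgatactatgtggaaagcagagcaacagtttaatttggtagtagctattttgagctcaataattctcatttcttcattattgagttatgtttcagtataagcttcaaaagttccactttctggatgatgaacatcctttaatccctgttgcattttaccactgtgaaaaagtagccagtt

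The element was present in a window of 7 of the 9 receptors, *Clec12a*, *Clec4a1*, *Clec4a3*, *Clec4d*, *Clec4e*, *Clec5a* and *Clec7a*, whereas *Clec4a2* and *Clec9a* had no match. Among 27025 genes with a window, 25.9% had it. It was chosen after some of these windows had been seen, so the count is a description, and receptors with a match included both *Clec4a1*, with the largest difference, and *Clec7a*, with the smallest. *Clec4a1* and *Clec4a3* shared an uninterrupted run of 17 bases, cctggttcctctttttc, which holds the element, starting at −222 from the start of *Clec4a1* and −55 from the later annotated start of *Clec4a3*. No other pair shared more than 12 bases. Of the other motifs searched on both strands, TGANTCA (the AP-1 site) matched *Clec12a* alone against 7.82% of genes, TTGCNNAA (a C/EBP-type site) matched *Clec4e* and *Clec12a* against 10.8%, and neither the NF-κB site nor the interferon-stimulated response element, both searched in a relaxed form, matched any receptor, against 1.36% and 3.46%.

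Downstream of the receptors, none of 42 measured genes of lectin receptor signalling passed the test in either direction, and their median log2 fold change was 0.04. *Syk* had 11.40 and 11.32 on the *Trem-2*-/- arrays versus 11.23 and 11.28 in WT AM (log2 fold change 0.11, adjusted p = 0.65). *Card9* had 9.16 and 8.99 on the *Trem-2*-/- arrays versus 8.95 and 8.85 on the WT arrays (log2 fold change 0.17, adjusted p = 0.53). The lowest p belonged to *Blnk* and *Lcp2*, adaptors that link SYK to its targets, with log2 fold changes of 0.30 (adjusted p = 0.27) and 0.19 (adjusted p = 0.39). At an unadjusted p below 0.05, 2 of the 42 were higher and none lower, against 4.64% and 6.9% of all genes. SAM called none.

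Of 29 genes that these receptors are known to induce, 3 rose, none fell and 26 did not pass. *Ptgs2*, the gene of cyclooxygenase-2, had 7.75 and 7.78 on the *Trem-2*-/- arrays versus 5.77 and 5.53 in WT AM, a difference of 2.12 log2 units (adjusted p = 0.00088). *Ccl3*, a chemokine, rose by 0.63 (adjusted p = 0.029) and *Ptges*, the prostaglandin E synthase, by 0.54 (adjusted p = 0.047), but neither passed when an array was omitted (adjusted p = 0.13 to 0.21 for *Ccl3* and 0.17 to 0.28 for *Ptges*). *Egr2*, a transcription factor induced through Dectin-1, had 9.83 and 9.78 on the *Trem-2*-/- arrays versus 10.32 and 10.30 in WT AM and narrowly missed the threshold (log2 fold change −0.51, adjusted p = 0.058). *Il1b*, the gene of interleukin-1β, had 9.34 and 9.49 on the *Trem-2*-/- arrays versus 8.63 and 8.86 in WT AM (log2 fold change 0.67, adjusted p = 0.080), and SAM called it. At an unadjusted p below 0.05, 9 of the 29 were higher and 2 lower, against 4.64% and 6.9% of all genes. SAM called 4 as higher and none as lower. *Il12b*, *Il23a* and *Tnf* did not pass.

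Markers of other cell types moved in the same samples. Of 16 measured markers of interstitial macrophages other than the C1q genes, 8 were called higher in *Trem-2*-/- AM and none lower, with a mean log2 level of 7.85 and 7.86 against 7.24 and 7.29 in WT AM. With an array omitted, 4 of these 8 passed in all 4 fits (*Pf4*, *Apoe*, *Tmem176b* and *H2-Eb1*), *H2-Aa* in 2, and *Cd74*, *Cd14* and *Cx3cr1* in none (adjusted p = 0.051 to 0.28). All 3 C1q genes, which the study selected on these arrays, were called as well, *C1qa* in only 1 of those fits. Apart from the C1q genes, the most changed were *Pf4*, with a log2 fold change of 1.98, *Apoe*, at 1.67, and *Tmem176b*, at 1.26. *Lyve1*, *Folr2* and *Cd163*, further markers of the same list, differed by −0.09, −0.07 and 0.10 and did not pass the test. *Cd163* had means below the lower quartile of the arrays. Of 11 monocyte markers, 3 were called higher, namely *Ccr2* (0.81), *Cx3cr1* (0.67) and *F13a1* (0.67), and *Itgam* was lower (−0.54). *Cx3cr1* stands in both lists. None of these 4 passed when an array was omitted (adjusted p = 0.062 to 0.28). None of 16 neutrophil markers passed in limma. At an unadjusted p below 0.05, 5 were higher and none lower, against 4.64% and 6.9% of all genes. Their mean log2 level was 6.10 and 6.10 on the *Trem-2*-/- arrays versus 5.957 and 5.995 in WT AM. *Csf3r*, the receptor of the neutrophil growth factor G-CSF, had the lowest p of the neutrophil markers, and SAM called it. It had 7.95 and 7.81 on the *Trem-2*-/- arrays versus 7.34 and 7.14 in WT AM (log2 fold change 0.64, adjusted p = 0.070). *Lcn2* had the next lowest p (log2 fold change 0.38, adjusted p = 0.16). The arrays of the genotypes overlapped for 10 of the 16, among them *Ly6g*, *S100a8* and *S100a9*, which differed by 0.02, 0.02 and 0.09. *Ly6g* had means below the lower quartile of the arrays in both genotypes. Of 16 lung epithelial markers, 2 were called higher and none lower, *Cldn18*, a tight junction gene (1.23), and *Scgb1a1*, the club cell secretoglobin (0.91). With 1 array left out, the log2 fold change was 1.13 to 1.33 for *Cldn18* and 0.84 to 0.97 for *Scgb1a1*. At an unadjusted p below 0.05, 7 epithelial markers were higher and 1 lower, against 4.64% and 6.9% of all genes. The lower one was *Cdh1* (log2 fold change −0.45, adjusted p = 0.16). The arrays did not overlap for 7 that were higher and 5 that were lower, against 17.4% and 25.4% of all genes. SAM called 4 as higher and none as lower. Of 13 lymphocyte markers none passed in limma or SAM. Of these 13, 1 was higher and none lower at an unadjusted p below 0.05, against 4.64% and 6.9% of all genes. The lowest p belonged to *Cd3g* and *Gzmb*, with log2 fold changes of 0.32 (adjusted p = 0.22) and 0.14 (adjusted p = 0.56). The WT mean of *Gzmb* lay below the lower quartile of the arrays. The part of these cells in the lectin receptor differences was not tested.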

How the data were processed

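RNA of pooled AM was hybridized by the authors to murine Gene 1.0 ST arrays, 2 per genotype. The deposited log2 values are RMA values normalized over the 4 arrays together, and the build mm9 is given in the submitters' processing notes, which state no version of RMA. Scanner intensities were not analysed here, so neither background correction nor detection calls could be varied.

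Probe sets with 1 gene symbol in the platform annotation were used (21797 of 35557), 21698 of them were matched by gene identifier to RefSeq names of GRCm38.p6, and the probe set with the highest mean was kept for each of 19946 genes. No filter was applied. The genotype difference was fitted per gene in limma (version 3.58.1, under R 4.3.3; lmFit, then eBayes). Its two-sided p-values were adjusted by Benjamini-Hochberg across the 19946 genes, with 0.05 as the threshold. Every adjusted p is from limma unless SAM or a t-test is named. SAM was written out after its published definition with all 6 assignments of the arrays. Both were tested on simulated data. The precision is limited by the number of arrays.

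The receptors, the 12 other gene lists and the tests were chosen with earlier results of these data known. The genes named are the 10 receptors, *Trem2*, the adaptors and kinases *Tyrobp*, *Hcst*, *Fcer1g*, *Syk* and *Card9*, the lectin genes *Clec4a4*, *Clec4b1* and *Clec4b2*, and from each other list up to 4 called genes with the largest change or, where none was called, the 2 with the lowest p. Others were named after their values were seen. As alternatives, the test was replaced by SAM or the methods' t-test, or run with a variance trend on intensity and robust shrinkage or with a replicate block. The values were quantile normalized or centred on their median, genes with a mean log2 below 6 were dropped, probe sets were averaged per gene or tested row by row, and each array was omitted in turn. Promoter windows were taken from a RefSeq table of GRCm38.p6, a build other than mm9, and were not joined to the arrays by position.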

Additional observations from a re-analysis of the deposited data

How the results depend on the processing

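No receptor changed direction under any of the 14 alternatives, but only quantile normalization and median centring could have reversed one. The other tests, the block, the filter and the probe set choices left each estimate as it was. Omission of an array could not reverse a receptor whose arrays did not overlap between genotypes, which held for all 10. The count of receptors called higher was 0 in the limma fit, 1 under SAM, 3 under the methods' t-test without adjustment (*Clec4n*, *Clec4e* and *Clec4a3*), 5 with an intensity trend and robust variance and 2 with the filter on mean log2 values, and it stayed 0 under the other 10 alternatives, the t-test after Benjamini-Hochberg among them. Their median log2 fold change was 0.15 to 0.19 under the scalings and most omissions, and 0.12 without *Trem-2*-/- replicate 2. The filter tested 10783 genes in place of 19946, and the cause of the other shifts was not tested.

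*Trem2* missed the threshold only under the t-test after Benjamini-Hochberg (log2 fold change −2.11, adjusted p = 0.41). For *Trem2* and the other lists the alternatives were added after seeing the data. Those lists held 19 genes called higher and 1 lower, against 26 and 0 under SAM, 40 and 12 under the methods' t-test without adjustment, 0 and 0 after its adjustment, 40 and 8 with an intensity trend, 32 and 3 with the filter, 19 and 0 after median centring, 3 and 0 with all rows as probe sets, and 7 to 10 and 0 with 1 array left out. Of the 20, 7 passed in all 4 such fits and 9 in none.

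Deviations of same-numbered arrays correlated at r = −0.05. A correlation of this kind cannot show whether the arrays were prepared in pairs, which the sources used here do not state. With the replicate block 0 receptors were called and the other lists gave 23 higher and 0 lower.

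Over all genes the calls were 86 higher and 27 lower in limma, 171 and 19 under SAM and 379 and 290 with an intensity trend. They were 207 and 150 with the filter, 21 and 2 with all rows as probe sets and 0 and 0 under the methods' t-test after Benjamini-Hochberg.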

Other observations

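Of 29 further myeloid and endothelial lectin receptors, none passed in limma, with a median log2 fold change of −0.03. The arrays did not overlap for 8 that were higher and 6 that were lower, against 17.4% and 25.4% of all genes. At an unadjusted p below 0.05, 3 were higher and 1 lower, against 4.64% and 6.9% of all genes. SAM called *Clec2d* alone. *Clec2d*, a ligand of an inhibitory receptor of NK cells, had 10.12 and 10.30 on the *Trem-2*-/- arrays versus 9.48 and 9.76 in WT AM (log2 fold change 0.59, adjusted p = 0.14). *Cd209b*, the mouse SIGN-R1, which binds pneumococcal polysaccharide, had 6.59 and 6.40 on the *Trem-2*-/- arrays versus 6.06 and 6.04 in WT AM (log2 fold change 0.44, adjusted p = 0.15). Of 22 NK-type lectins of chromosome 6, 17 lay below the lower quartile of the arrays in both genotypes. None passed in limma, and 4 were higher and 9 lower without overlap, against the same 17.4% and 25.4% of all genes. At an unadjusted p below 0.05, 3 were higher and 2 lower, against the same 4.64% and 6.9% of all genes. SAM called *Clec2g* (log2 fold change 0.46, limma adjusted p = 0.12). *Klrc2*, an activating receptor of NK cells, was among the 17 below that quartile, with a log2 fold change of −0.40 (adjusted p = 0.12).

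Among 15 soluble lectins, none passed in limma or SAM. At an unadjusted p below 0.05, 2 were higher and 4 lower, against 4.64% and 6.9% of all genes. *Reg3g*, a secreted antibacterial lectin, had 5.58 and 5.72 on the *Trem-2*-/- arrays versus 5.23 and 4.97 in WT AM (log2 fold change 0.55, adjusted p = 0.14), and *Fcna*, the gene of ficolin A, had 6.62 and 6.47 in *Trem-2*-/- AM and 6.17 and 6.02 in WT AM (log2 fold change 0.45, adjusted p = 0.16). The galectin genes *Lgals1*, *Lgals3* and *Lgals9* had lower values on both *Trem-2*-/- arrays than on either WT array, with log2 fold changes of −0.28, −0.22 and −0.27 (adjusted p = 0.34, 0.35 and 0.26). *Lgals8* ran the other way, with 10.73 and 10.74 in *Trem-2*-/- AM and 10.65 and 10.62 in WT AM (log2 fold change 0.10, adjusted p = 0.64).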
